A study of Homo sapiens with 4 samples.

Results

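The genes described here are 34 enzymes of purine, pyrimidine and deoxynucleotide (dNTP) synthesis, followed through the de novo routes, which build a base from small precursors, and the salvage routes, which reuse bases and nucleosides. They were picked by gene symbol from a table of 19475 symbols, and each symbol was represented by its transcript with the highest mean level over the 4 libraries. All RNA was from the human ovarian cancer line SKOV3, an established cell line, with no engineered allele and no drug in either group. The TCP group was 2 libraries of cells on tissue culture plates, labelled day 0. The polymer X group was 2 libraries of floating tumor spheroids grown from the same line on plates coated with a thin film of polymer X, labelled day 8. The methods of the study describe fetal bovine serum for the stock cultures and serum replacement for the spheroids, whereas the labels carry 1 serum replacement protocol for all 4 libraries. Substrate, culture time and possibly medium therefore cannot be told apart in this comparison. The labels do not say whether the replicates were separate cultures, so the p-values measure the spread between these libraries, which may be technical.

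Purine nucleotides are assembled stepwise on phosphoribosyl pyrophosphate (PRPP) until inosine monophosphate (IMP) is reached, and IMP then branches to AMP and GMP. The pyrimidine ring is closed first and joined to PRPP afterwards, giving UMP and then CTP. Ribonucleotide reductase converts the diphosphates into deoxynucleotides for DNA, thymidylate synthase adds the methyl group that makes thymidylate, and salvage kinases and phosphoribosyltransferases return free bases and nucleosides to the pools. Dividing cells are known to raise several of these enzymes in S phase, TK1, RRM2 and TYMS among them, whereas TK2 and RRM2B are known to serve cells outside S phase and the supply of mitochondrial DNA.

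Levels were deposited as FPKM, fragment counts scaled to transcript length and to the mapped tags of the library. All low values examined were whole multiples of 1 tag within 0.1 tag, which put the totals behind the scaling at 38403000 to 44916000 tags per library. The 34 genes were covered by 257 to 16101 tags per library, all of them reached an FPKM of 1 in all 4 libraries, and all were among the 11964 genes tested. Of 7 epithelial and SKOV3 markers, 5 reached an FPKM of 1 in a library (KRT19 and WT1 did not), and their summed level was 632 to 647 on TCP and 1203 to 1253 on polymer X. Members of that list moved in both directions, with ERBB2 (log2 fold change 2.13), PAX8 (1.06) and EPCAM (1.05) higher and KRT8 (-0.87) and KRT18 (-0.44) lower. EPCAM had FPKM of 0.168 and 0.104 on TCP and 1.39 and 1.325 on polymer X. It entered the test only because both polymer X libraries reached an FPKM of 1. Of 11 markers of leukocytes, endothelium, fibroblasts and muscle, only COL1A1 and COL3A1 reached it, CD3E was at 0 in all libraries and PECAM1 at 0 on TCP. The summed FPKM of these 11 markers was 8.61 to 8.73 on TCP and 9.82 to 10.8 on polymer X, a sum that hid opposite moves. COL1A1 fell from a mean FPKM of 8.34 to 3.79 and COL3A1 rose from 0.0205 to 4.91, while PTPRC was at 0.005 and 0 on TCP and 0.468 and 0.53 on polymer X, and PECAM1 at 0.573 and 0.458 on polymer X. The part of these markers in the results was not tested.

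Most of the pathway was lower in the spheroids. Between polymer X and TCP, 29 of the 34 genes fell at an adjusted p under 0.05 (limma on log2(FPKM + 1), Benjamini-Hochberg over all tested genes), 2 rose (TK2 and SAMHD1) and 3 did not pass (PRPS2, CTPS2 and RRM2B). Over all tested genes, 43.6% fell and 37.4% rose by the same rule. Quantile normalization left 27 that fell, without UCK1 and DUT, and with no filter on low values SAMHD1 did not pass. Of the 29, 17 also had a log2 fold change of -1 or lower, against 9.45% of all tested genes. Under quantile normalization 13 did, with PFAS, PAICS, HPRT1, CAD and NME2 no longer among them and UMPS added. Over all 11964 tested genes, 1020 did so under quantile normalization and 1131 without it. No gene of the list rose by a log2 fold change of 1 or more with limma, against 10.7% of all tested genes, and 2 were higher at an unadjusted p under 0.05. At the median the 34 genes had a log2 fold change of -1.0, with a range from -2.53 to 0.98, and the median of all tested genes was -0.06. Their FPKM summed to 1924 and 1826 on TCP and to 835 and 783 on polymer X. In bulk RNA of this kind, fewer cells of a type and less RNA per cell cannot be told apart.

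**Figure D1:**
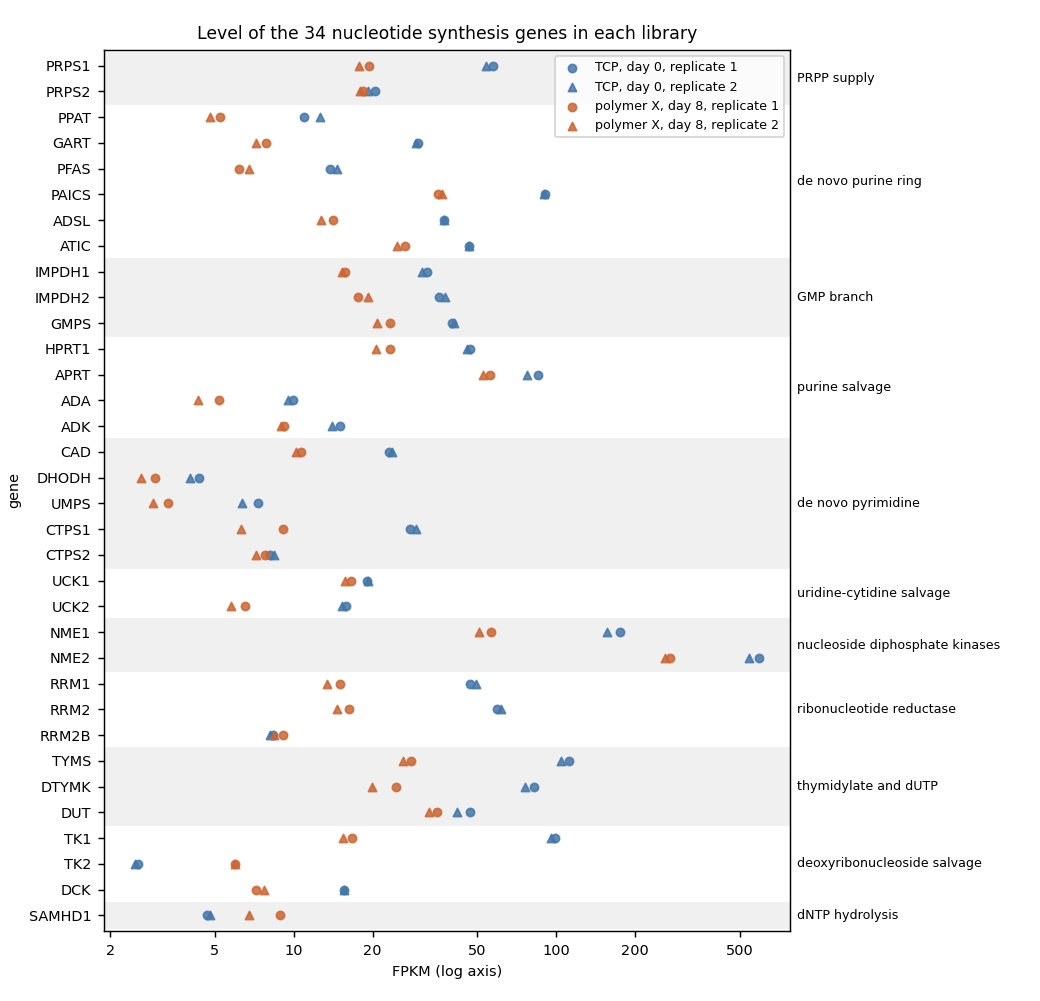
FPKM of each of the 34 genes (rows, grouped by step) on a log axis, with blue points for the TCP libraries and orange points for the polymer X libraries; circles are replicate 1 and triangles replicate 2. In 31 rows both orange points lie left of both blue points, and in the rows of TK2, SAMHD1 and RRM2B they lie to the right.

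No gene of the list had overlapping groups in the plot of levels by library. The share of all tested genes without overlap in either direction is not given, so nothing particular to the list is read from this. Both polymer X libraries were below both TCP libraries for 31 of 34 genes, a pattern that 48.4% of all tested genes showed. The standard errors of the log2 fold changes were 0.05 to 0.13 within the list, around a median of 0.07 over all tested genes. The largest, for CTPS1, went with a gap between its polymer X libraries.

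**Figure D2:**
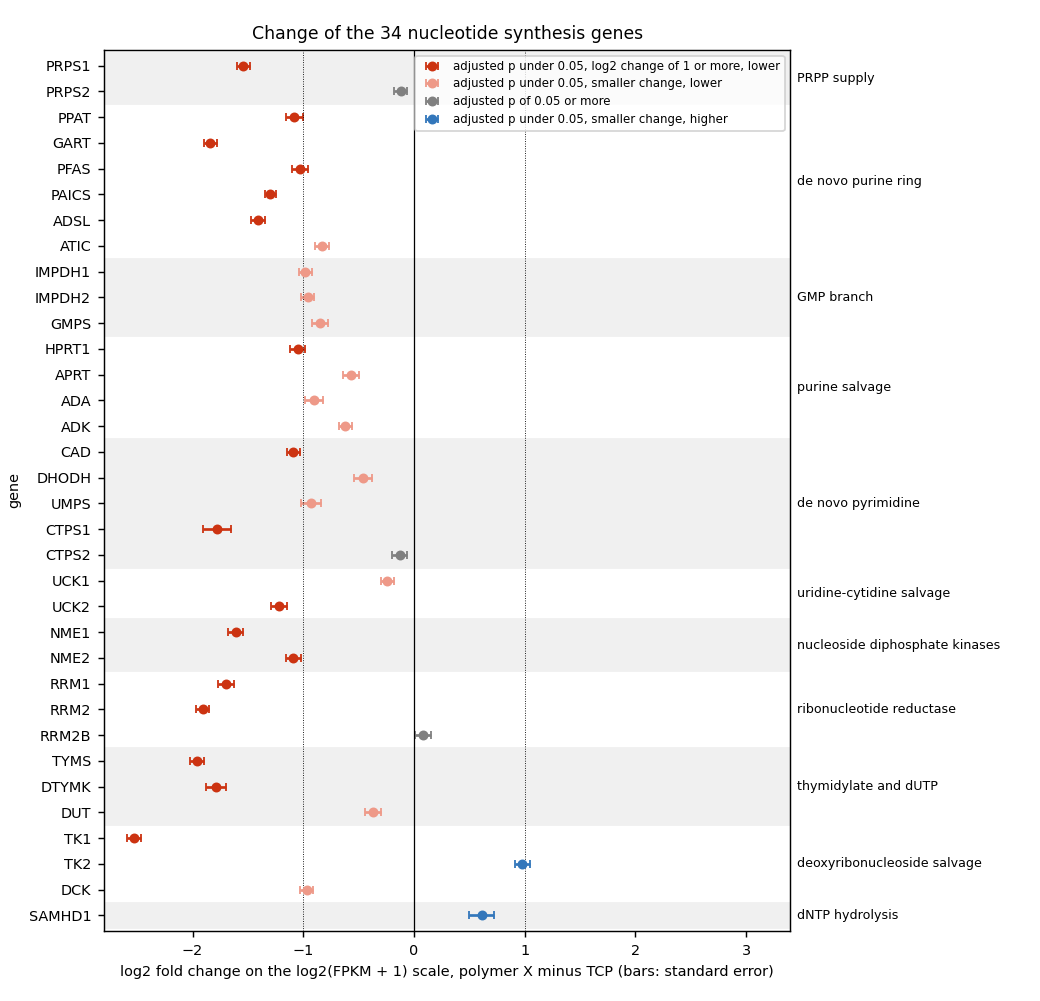
Log2 fold change of each gene, polymer X minus TCP on the log2(FPKM + 1) scale, with the standard error from limma as bars and dotted lines at a log2 fold change of -1 and 1. TK1 is farthest left at -2.53, TK2 farthest right at 0.98, and the grey points of PRPS2, CTPS2 and RRM2B lie next to 0.

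PRPP, the activated sugar shared by the de novo and the salvage routes, is made by PRPP synthetases. PRPS1 had FPKM of 57.5 and 54.2 on TCP and 19.4 and 17.7 on polymer X, and fell by 1.54 on the log2 scale (SE 0.06, adjusted p = 3.4e-08, limma). PRPS2 had 20.4 and 19.2 on TCP and 18.4 and 17.9 on polymer X. Its log2 fold change was -0.12 (95% interval -0.25 to 0.02, adjusted p = 0.092), which turned to 0.07 under quantile normalization. On TCP the PRPS1 level was thus well above that of PRPS2, and on polymer X the levels of both lay between 17.7 and 19.4.

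All 6 genes of the purine ring fell, with a median log2 fold change of -1.19, and 5 of them by 1 or more. PPAT, the amidotransferase that commits PRPP to the ring, went from FPKM of 10.9 and 12.6 on TCP to 5.26 and 4.79 on polymer X (log2 fold change -1.08, SE 0.08, adjusted p = 1.6e-06, limma). GART, a protein with 3 enzyme activities of the route, had the largest fall of the 6. Its FPKM was 29.7 and 29.2 on TCP and 7.84 and 7.19 on polymer X, 25.5% of the TCP mean (log2 fold change -1.84, SE 0.06, adjusted p = 1.1e-08). The GART transcript used lies at hg19 chromosome 21, 34876238 to 34914464, minus strand, and 5.6% of the exon bases of the gene are shared with the antisense gene SON.

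PFAS, which makes the formylglycinamidine intermediate, fell from FPKM of 13.8 and 14.7 to 6.21 and 6.76 (log2 fold change -1.03). PAICS, which carries out a carboxylation and the following ligation, was the highest of the ring genes, at 90.5 and 90.1 on TCP and 35.4 and 36.6 on polymer X (log2 fold change -1.30, SE 0.05, adjusted p = 3.3e-08). ADSL, which acts in the ring and again in the AMP branch, went from 37.4 and 37.3 to 14.1 and 12.7 (log2 fold change -1.41). ATIC, which closes the ring to IMP, was the ring gene with the smallest fall, from 46.5 and 46.4 to 26.6 and 24.8 (log2 fold change -0.83, SE 0.06, adjusted p = 9.4e-07). PAICS left 39.9% of its TCP mean and ATIC 55.2%, so the members of 1 route differed in how much RNA was left.

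The 3 genes of the GMP branch fell by similar amounts, and none reached a log2 fold change of -1. IMPDH1 and IMPDH2 are the isozymes of IMP dehydrogenase, the rate-limiting step toward GMP. IMPDH1 went from FPKM of 32.2 and 30.9 to 15.7 and 15.3 (log2 fold change -0.98), and IMPDH2 from 35.7 and 37.6 to 17.6 and 19.1 (-0.96). GMPS, the synthase that completes GMP, went from 40 and 40.7 to 23.2 and 20.7 (log2 fold change -0.85, SE 0.07, adjusted p = 1.9e-06, limma).

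All 4 purine salvage genes fell as well, by less at the median (-0.76) than the ring genes. HPRT1, which recovers hypoxanthine and guanine, went from FPKM of 47.1 and 45.8 to 23.2 and 20.7 (log2 fold change -1.05, SE 0.07, adjusted p = 4.8e-07, limma). APRT, the adenine counterpart, kept 66.8% of its TCP mean, with 85.4 and 77.2 on TCP and 56.0 and 52.7 on polymer X (log2 fold change -0.57, adjusted p = 3.0e-05). For both phosphoribosyltransferases each polymer X library was below each TCP library, as for 48.4% of all tested genes. ADA, which deaminates adenosine to inosine, went from 9.90 and 9.49 to 5.21 and 4.32 (log2 fold change -0.90), and ADK, which phosphorylates adenosine to AMP, from 15.0 and 14.1 to 9.18 and 8.96 (-0.62).

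In the de novo pyrimidine route 4 of 5 genes fell. CAD, which carries out the opening steps as a single large protein, went from FPKM of 23.1 and 23.7 to 10.7 and 10.2 (log2 fold change -1.09, SE 0.06, adjusted p = 1.9e-07, limma). DHODH, the mitochondrial dehydrogenase of the route and its lowest gene, went from 4.37 and 4.02 to 2.96 and 2.62 (log2 fold change -0.46, SE 0.08, adjusted p = 0.00056). UMPS, which completes UMP, went from 7.33 and 6.36 to 3.32 and 2.92 (log2 fold change -0.93). DHODH thus kept 66.5% of its TCP mean, CAD 44.6% and UMPS 45.6%.

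CTP synthase, which aminates UTP to CTP, is encoded by CTPS1 and CTPS2, and only CTPS1 passed the test. CTPS1 went from FPKM of 27.7 and 29.3 to 9.10 and 6.28, a log2 fold change of -1.78 (SE 0.13, adjusted p = 1.1e-06, limma). CTPS2 had 8.13 and 8.45 on TCP and 7.80 and 7.17 on polymer X (log2 fold change -0.13, 95% interval -0.29 to 0.02, adjusted p = 0.10). The polymer X libraries stood on either side of equal levels of the isozymes, with more CTPS1 in replicate 1 and more CTPS2 in replicate 2.

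The uridine-cytidine kinases, which return uridine and cytidine to the nucleotide pool, moved by unequal amounts. UCK1 went from FPKM of 19.1 and 19.2 to 16.5 and 15.7, a small fall (log2 fold change -0.24, SE 0.06, adjusted p = 0.0041, limma). Under quantile normalization it was -0.07 and no longer passed (adjusted p = 0.26). UCK2 went from 15.9 and 15.3 to 6.51 and 5.77 (log2 fold change -1.22, SE 0.07, adjusted p = 2.9e-07). The isozymes had similar levels on TCP and separated on polymer X.

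NME1 and NME2 encode the main nucleoside diphosphate kinases, which turn diphosphates into triphosphates, and they were the highest genes of the list. NME2 went from FPKM of 594 and 544 to 272 and 259.9 (log2 fold change -1.09), and NME1 from 176 and 156 to 56.4 and 51.0 (log2 fold change -1.61, SE 0.07, adjusted p = 7.0e-08, limma). A readthrough gene that joins them, NME1-NME2, covers 32.4% of the exon bases of NME1 and 40.4% of those of NME2, with FPKM of 453 and 415 on TCP and 199 and 188 on polymer X. Tags in these shared exons cannot be assigned to 1 of the 3 genes, so the NME1 and NME2 values are uncertain.

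Ribonucleotide reductase pairs a large subunit, RRM1, with a small subunit that is either RRM2, the form of dividing cells, or RRM2B, the p53-inducible form. RRM1 went from FPKM of 47.0 and 49.4 on TCP to 15.0 and 13.4 on polymer X (log2 fold change -1.70, SE 0.07, adjusted p = 2.7e-08, limma). RRM2, at hg19 chromosome 2, 10262863 to 10271546, plus strand, went from 59.7 and 61.7 to 16.2 and 14.6 (log2 fold change -1.91, SE 0.06, adjusted p = 1.0e-08). RRM2B had 8.31 and 8.12 on TCP and 9.07 and 8.41 on polymer X (log2 fold change 0.08, 95% interval -0.07 to 0.23, adjusted p = 0.30). The RRM1 and RRM2 subunits therefore kept 29.5% and 25.4% of their TCP means, while the RRM2B groups were close without overlapping.

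The thymidylate genes were among the lowest relative to TCP. TYMS, thymidylate synthase, went from FPKM of 112 and 105 to 27.9 and 26.2, 25.0% of the TCP mean (log2 fold change -1.96, SE 0.06, adjusted p = 6.8e-09, limma). DTYMK, the kinase that takes thymidylate to the diphosphate, went from 82.1 and 75.9 to 24.6 and 19.9 (log2 fold change -1.79, SE 0.09, adjusted p = 1.3e-07). Counting ignored strand, and 58.2% of the exon bases of TYMS overlap the antisense gene ENOSF1, whose FPKM was 11.1 and 10.6 on TCP and 21.6 and 22.7 on polymer X. Tags in that overlap count for both genes, and the part of ENOSF1 in the TYMS values was not tested.

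DUT, the dUTPase that keeps uracil out of DNA and supplies dUMP to thymidylate synthase, fell less. The transcript used, NM_001025248, had FPKM of 46.9 and 41.9 on TCP and 35.3 and 32.9 on polymer X (log2 fold change -0.37, SE 0.07, adjusted p = 0.00076, limma). Under quantile normalization it was -0.06 and no longer passed (adjusted p = 0.36). The 4 DUT transcripts of the table spanned -0.70 to -0.37, the lowest being NM_001948, with 49.6 and 43.5 on TCP and 29.7 and 26.9 on polymer X. DUT was 1 of 3 genes of the list, with GART and CTPS1, whose transcripts differed by more than 0.1 in log2 fold change. The annotation also holds 8 pseudogenes named after DUT, 7 each after PAICS and IMPDH1, and 3 each after HPRT1 and RRM2, and reads shared with such copies make these levels less certain. Other annotated genes share exon bases with ADSL (AL022238.4, 28.4%) and RRM2 (AC007240.1, 27.9%) on the same strand, and with DUT (AC023355.1, 17.2%) and TK2 (AC010542.4, 17.6%) on the opposite strand, and their part in these levels was not tested.

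The deoxynucleoside kinases went in opposite directions. TK1, the cytosolic thymidine kinase (hg19 chromosome 17, 76170160 to 76183285, minus strand), had the largest fall of the 34 genes. Its FPKM was 99.1 and 95.5 on TCP and 16.7 and 15.4 on polymer X, 16.5% of the TCP mean (log2 fold change -2.53, SE 0.06, adjusted p = 1.9e-09, limma). DCK, which phosphorylates deoxycytidine and other deoxynucleosides, went from 15.5 and 15.5 to 7.18 and 7.72 (log2 fold change -0.97).

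TK2, the mitochondrial thymidine kinase (hg19 chromosome 16, 66541906 to 66584194, minus strand), had the largest rise. Its FPKM was 2.55 and 2.49 on TCP and 5.96 and 5.95 on polymer X, a ratio of means of 2.36 (log2 fold change 0.98, SE 0.07, adjusted p = 1.1e-06, limma). With a pseudocount of 0.1 in place of 1 its log2 fold change was 1.21. SAMHD1, the triphosphohydrolase that breaks dNTPs down and is known as a restriction factor induced by interferon in some cells, had 4.67 and 4.80 on TCP and 8.87 and 6.74 on polymer X (log2 fold change 0.61, SE 0.11, adjusted p = 0.00052, and 0.063 with no filter on low values). Its polymer X libraries stood apart from each other, and both lay above TCP. The antisense gene TLDC2 covers 18.8% of the SAMHD1 exon bases.

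Promoter windows of RefSeq on GRCh38.p14, from 250 bases before to 50 after a gene's start, were matched by symbol for 31 of the 34 genes, all but ADSL, IMPDH2 and RRM2B. They were searched on both strands for words known from promoters of cell cycle and MYC-bound genes, and this search was chosen after the expression values had been seen. The words were an E2F site (TTTCCCGC, TTTGGCGC, TTTCGCGC or TTTGCCGC), the E-box CACGTG, the CCAAT box and the cell cycle homology region (TTTGAA or TTCGAA), and no match overlapped a match of another word. The windows of the genes with the largest falls in the dNTP steps, TK1, RRM2 and TYMS, of PAICS, which shares its window with PPAT, and of TK2, the gene with the largest rise, are printed 5′ to 3′ on the gene's strand with the matches in capitals. Where a gene had several windows, the 1 with the most matches is shown, which need not be that of the transcript whose FPKM is given. A match on the other strand stands as its reverse complement, ATTGG for the CCAAT boxes of TK1 and GCGGGAAA for the E2F site of TYMS.
TK1: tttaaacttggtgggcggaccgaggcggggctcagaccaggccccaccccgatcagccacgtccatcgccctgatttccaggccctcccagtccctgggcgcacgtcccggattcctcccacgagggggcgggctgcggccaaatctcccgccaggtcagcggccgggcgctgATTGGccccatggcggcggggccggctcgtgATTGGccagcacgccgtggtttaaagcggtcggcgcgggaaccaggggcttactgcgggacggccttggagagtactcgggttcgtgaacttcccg
RRM2: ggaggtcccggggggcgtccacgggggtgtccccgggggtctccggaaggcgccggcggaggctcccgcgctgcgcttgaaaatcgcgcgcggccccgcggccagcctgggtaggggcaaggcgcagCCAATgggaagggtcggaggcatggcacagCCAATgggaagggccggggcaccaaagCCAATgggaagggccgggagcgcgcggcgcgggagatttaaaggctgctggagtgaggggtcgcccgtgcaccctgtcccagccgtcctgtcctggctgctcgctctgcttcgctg
TYMS: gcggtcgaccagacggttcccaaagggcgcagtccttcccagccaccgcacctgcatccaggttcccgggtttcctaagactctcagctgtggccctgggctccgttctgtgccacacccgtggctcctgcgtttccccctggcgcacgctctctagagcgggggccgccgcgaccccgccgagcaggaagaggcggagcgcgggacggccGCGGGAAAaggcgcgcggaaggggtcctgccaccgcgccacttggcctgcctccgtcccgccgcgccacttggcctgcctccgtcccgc
PAICS: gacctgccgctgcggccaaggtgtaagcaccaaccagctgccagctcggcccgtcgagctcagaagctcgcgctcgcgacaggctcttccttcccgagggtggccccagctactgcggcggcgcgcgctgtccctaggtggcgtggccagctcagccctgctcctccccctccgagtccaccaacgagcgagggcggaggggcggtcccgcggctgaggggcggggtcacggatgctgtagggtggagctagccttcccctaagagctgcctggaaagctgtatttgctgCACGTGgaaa
TK2: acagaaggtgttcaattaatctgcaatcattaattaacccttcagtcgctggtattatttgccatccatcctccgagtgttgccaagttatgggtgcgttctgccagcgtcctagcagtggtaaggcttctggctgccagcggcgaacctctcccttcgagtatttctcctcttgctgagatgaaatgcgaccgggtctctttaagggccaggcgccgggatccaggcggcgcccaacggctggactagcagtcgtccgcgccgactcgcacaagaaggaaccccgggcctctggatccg
The TK1 window shown lies at chr17:78187003-78187302 (minus strand) and holds CCAAT boxes 77 and 46 bases before the start, and the other TK1 window holds none of the words. The RRM2 window shown, chr2:10122489-10122788 (plus strand), holds 3 CCAAT boxes, beginning 123, 93 and 66 bases before the start, and the other RRM2 window holds 1. The TYMS window, chr18:657403-657702 (plus strand), holds an E2F site 39 bases before the start, and the TK2 window, chr16:66550073-66550372 (minus strand), holds none of the words. The PAICS window shown, chr4:56435502-56435801 (plus strand), is 1 of 3, of which the others hold none of the words, and it shares 236 bases with the PPAT window on the opposite strand, chr4:56435566-56435865. The annotated starts of PAICS and PPAT in these windows are 137 bases apart, and the single E-box counts for both genes. The PPAT and PAICS transcripts whose FPKM is given lie 467 bases apart on hg19.

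Over the list, the E2F site was found for 5 of 31 genes (DCK, DUT, GART, PRPS2 and TYMS), or 16.1%, against 4.0% of all 27305 genes with a window. The E-box was found for 6 of 31 (ATIC, DCK, DHODH, NME1, PAICS and PPAT), or 19.4%, against 8.8%. The CCAAT box was found for 38.7% of the list and 39.7% of all genes, and the cell cycle homology region for 16.1% and 19.5%. A gene counted if any of its windows matched, and genes differed in their number of windows (35116 windows for the 27305 genes). The shares were not adjusted for this, so the list and all genes were not searched over equal numbers of windows. The E2F matches of DUT lay only in its window 4 and that of GART only in its window 3. A match describes letters in a window and no binding was measured. The genes with an E2F site ranged from TYMS, at -1.96, to PRPS2, at -0.12, in log2 fold change.

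Set side by side, the de novo and the salvage genes were both lower on polymer X. For the 14 de novo genes (ring, GMP branch and pyrimidine route) the median change was -1.0 on the log2 scale (replicate SD 0.012), with a range from -1.84 to -0.13, and 13 of 14 lower. For the 9 salvage genes (HPRT1, APRT, ADA, ADK, UCK1, UCK2, TK1, TK2 and DCK) it was -0.90 (replicate SD 0.072), with a range from -2.53 to 0.98, 8 lower and 1 higher. The summed FPKM of the de novo genes went from 407 and 411 to 186 and 177, and that of the salvage genes from 309 and 295 to 146 and 137. Both class medians lay within the range that the other class spanned.

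The salvage class held both the largest fall and the largest rise of the list, TK1 and TK2, and so depended on the deoxynucleoside kinases. Without TK1, TK2 and DCK, the median of the 6 remaining salvage genes was -0.76, and their summed FPKM on polymer X was 0.602 of that on TCP, against 0.443 for the de novo genes. The 10 genes of dNTP supply, which share TK1, TK2 and DCK with the salvage class, had a median of -1.33 (replicate SD 0.021), with 7 lower, 2 higher and RRM2B not past the test. Their summed FPKM went from 478 and 460 to 167 and 151, or 0.339 of the TCP value. No test was made between the classes, whose members share cells and libraries.

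Isozymes of 1 step differed in how far they moved. Ratios of FPKM, which is scaled per transcript length, were compared in 7 pairs. In 6 of them the TCP and polymer X libraries did not overlap, with an exact permutation p of 0.333 (two-sided, the smallest that 2 against 2 libraries can give, 0.389 adjusted over the 7 pairs). The TK1 to TK2 ratio went from 38.8 and 38.3 to 2.79 and 2.58, a 14.4-fold difference, and the RRM2 to RRM2B ratio from 7.18 and 7.60 to 1.79 and 1.74, a 4.19-fold difference. In both pairs the S-phase form stayed the higher of the pair in all 4 libraries.

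**Figure D3:**
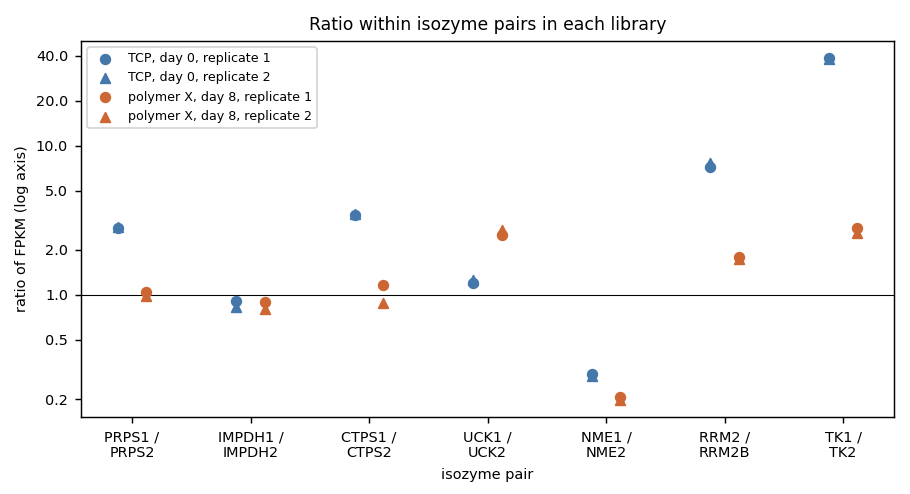
Ratio of FPKM between the members of 7 isozyme pairs in each library, on a log axis with a line at 1; blue points are TCP, orange points polymer X, circles replicate 1 and triangles replicate 2. The orange points lie below the blue ones for 5 pairs and above them for UCK1 to UCK2, and the groups overlap for IMPDH1 to IMPDH2.

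The PRPS1 to PRPS2 ratio went from 2.81 and 2.83 to 1.05 and 0.986, and that of CTPS1 to CTPS2 from 3.41 and 3.47 to 1.17 and 0.876. In these pairs the levels were nearly level on polymer X. The UCK1 to UCK2 ratio rose from 1.20 and 1.25 to 2.53 and 2.71, and the NME1 to NME2 ratio went from 0.296 and 0.287 to 0.207 and 0.196. IMPDH1 to IMPDH2 was the pair whose groups overlapped, at 0.904 and 0.822 on TCP and 0.893 and 0.802 on polymer X (change of the log2 ratio -0.03, replicate SD 0.10, exact permutation p = 0.667).

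The other nucleotide genes, a list of 72 of which 61 were tested, were split evenly, with 27 higher, 27 lower and a median log2 fold change of 0.02. These counts, and those of the lists within it, stand against 37.4% higher and 43.6% lower over all tested genes, and nothing particular to the lists is read from them. The folate genes, which supply carbon units to the purine ring and to thymidylate, had 9 lower and 4 higher of 15 tested. MTHFD1 (-1.75), MTHFD2 (-1.25) and MTHFD1L (-1.14), which act in the supply of formyl and methylene folate, were among those with a log2 fold change of -1 or lower. The AMP branch and phosphotransfer genes had 8 higher and 9 lower of 18, and of these ADSSL1, the muscle form of adenylosuccinate synthase, rose by 1 or more (1.56). ADSSL1, at FPKM of 0.831 and 0.571 on TCP, entered the test only through polymer X and so could only rise.

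**Figure D4:**
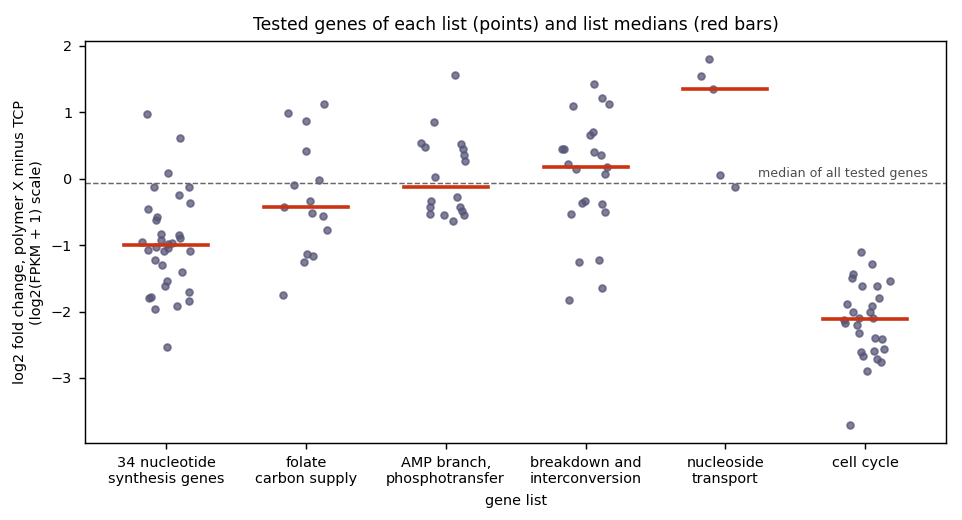
Log2 fold change of the tested genes of each list, polymer X minus TCP on the log2(FPKM + 1) scale, 1 point per gene with random sideways spread, red bars for the list medians and a dashed line for the median of all tested genes at -0.06. The synthesis genes centre on -1.0, the cell cycle genes on -2.11 and the breakdown genes on 0.18.

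Breakdown and interconversion genes had 12 higher and 9 lower of 23. Those higher by 1 or more in log2 fold change included AMPD3 (1.43), an AMP deaminase, and GMPR (1.22), which returns GMP to IMP. NT5E (1.13), the surface enzyme that makes adenosine, and TYMP (1.09), thymidine phosphorylase, also rose by as much. AMPD3, at FPKM of 0.124 and 0.101 on TCP, entered the test only through polymer X and so could only rise. Those lower by 1 or more included NUDT1 (-1.83) and DCTPP1 (-1.65), which clear damaged or unwanted nucleoside triphosphates, and CDA (-1.22), cytidine deaminase. Of 5 nucleoside transporters tested, SLC29A2 (1.80), SLC29A4 (1.55) and SLC28A1 (1.35) rose by 1 or more, against 10.7% of all tested genes, and none fell. SLC28A1 had FPKM of 0.322 and 0.232 on TCP, and it too entered the test only through polymer X.

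Cell cycle genes moved with the synthesis genes in these libraries. All 28 of a cell cycle list fell by a log2 fold change of 1 or more, against 9.45% of all tested genes. The list had a median of -2.11 and a range from -3.71 to -1.11, with MKI67 at -2.61, CDK1 at -1.61 and PCNA at -1.29. The summed FPKM of the 28 genes went from 1609 and 1602 on TCP to 322 and 309 on polymer X. This was 0.197 of the TCP value, against 0.432 for the 34 genes. Of 20 interferon response genes 19 rose by 1 or more, against 10.7% of all tested genes, with a median of 2.03, beside the higher SAMHD1. Several of the 20 were under an FPKM of 1 in both TCP libraries, such as MX2 (0 and 0) and OAS1 (0.172 and 0.258). Such genes entered the test only through polymer X and could only rise, so the count of 19 was in part set by the filter. Of 14 p53 response genes 9 rose and 2 fell by the adjusted p alone, against 37.4% and 43.6% of all tested genes. With the fold minimum 5 rose and 1 fell, against 10.7% and 9.45% of all tested genes. GDF15, among those that rose, was at FPKM of 0.28 and 0.638 on TCP and entered the test only through polymer X. The p53 list had a median of 0.31, beside the nearly level RRM2B. The part of cell cycle state, interferon response and p53 response in the levels of the 34 genes was not tested.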

How the data were processed

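RNA sequencing of SKOV3 cells was deposited as 1 table of FPKM with a column per library. The authors made the FPKM values with HOMER (analyzeRepeats.pl, RefSeq transcripts on hg19, exons, both strands, scaled to each library's mapped tags), per the file header, and the submitters' processing notes also name STAR 2.4.0 and DESeq. The header names further cultures that are not analysed here. The library kit was directional, while counting ignored strand. From 50078 transcripts, the 1 with the highest mean FPKM was kept per symbol.

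Genes that reached an FPKM of 1 in 2 or more libraries entered a limma 3.58.1 fit of log2(FPKM + 1) (R 4.3.3, mean-variance trend), 2 polymer X against 2 TCP libraries, and p-values were adjusted by Benjamini-Hochberg over the 11964 tested genes. Fold changes of low genes are understated on this scale. The threshold was an adjusted p of 0.05, and a log2 fold change of at least 1 was asked for in addition where stated. In simulated data for this comparison (11690 genes tested), 196 of 196 genes changed by 1.5 on the log2 scale passed the adjusted p, and 168 also the fold minimum. Of 11494 unchanged genes 0 passed both thresholds together, and unchanged genes passing the adjusted p alone were not counted. The simulated spread between libraries was set by hand, and few genes were changed, whereas 37.4% rose and 43.6% fell in the data. The simulation therefore does not give the error rate of the results by adjusted p alone. Class values are medians with the SD over replicates. A count of 3 tags for a transcript of 2000 bases corresponds to 0.0334 to 0.0391 FPKM, which covers counting error only. Coordinates are hg19 from the table, and exon overlaps and pseudogenes were taken from GENCODE v29.

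The members, the gene lists and the tests were chosen with earlier results of these data known. All 34 members are named. From the other nucleotide lists, genes past both thresholds are named, at most 4 per list and direction, and 3 cell cycle genes; some genes that meet this rule are not reported here. The alternatives were a pseudocount of 0.1, no filter, a mean FPKM minimum of 5, quantile normalization, a common median, a replicate block, the sum of transcripts, the longest transcript, no variance trend, no fold minimum, other class borders and each library left out.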

Additional observations from a re-analysis of the deposited data

How the results depend on the processing

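Of 693 values for 54 genes chosen by the naming rule under these alternatives, 661 kept their direction and their call by the adjusted p and the fold minimum together, 17 lost that call, 14 gained it and 1, PRPS2 under quantile normalization (0.07, against -0.12), changed sign. Among the 34 genes, the number that fell by a log2 fold change of 1 or more stayed between 13 (quantile normalization) and 21 (pseudocount of 0.1), around 17, and was 29 with no fold minimum, where by construction the threshold is lower. Over all 11964 tested genes, 1020 fell by 1 or more under quantile normalization, 1413 with a pseudocount of 0.1 and 1131 in the fit described above. Quantile normalization took PFAS (-0.96), PAICS (-0.99), HPRT1 (-0.78), CAD (-0.94) and NME2 (-0.73) under that fold and added UMPS (-1.04), each at an adjusted p under 0.05. By the adjusted p alone, 3 values for the 34 genes changed side: UCK1 (-0.07, adjusted p = 0.26) and DUT (-0.06, adjusted p = 0.36) under quantile normalization and SAMHD1 (0.61, adjusted p = 0.063) with no filter. The number that rose by as much was 0, and 1 (TK2) with a pseudocount of 0.1, the libraries at a common median or the sum of transcripts, and 2 with no fold minimum.

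The median log2 fold change of the de novo genes, -1.0, was -1.12 with a pseudocount of 0.1, -1.05 with a mean FPKM minimum of 5, -0.95 under quantile normalization, -0.96 at a common median, -1.01 for the sum of transcripts and -1.05 with the PRPP and dNTP steps added. That of the salvage genes, -0.90, was -1.02, -0.93, -0.78, -0.86 and -0.97 under the first 5 of these, and -0.76 without TK1, TK2 and DCK. That of the dNTP genes, -1.33, was -1.40 with a pseudocount of 0.1, -1.70 with a mean FPKM minimum of 5, -1.17 under quantile normalization and -1.29 at a common median. With the mean FPKM minimum only 31 of the 34 genes were tested and 42.2% of all calls were higher, against 53.2%. The genes not tested were DHODH, UMPS and TK2, so these class medians were taken over fewer genes. Without TK2, which rose, the dNTP median of -1.70 was the value of RRM1, whose own change was the same with and without the minimum. The cause of the other shifts was not tested.

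Leaving out 1 library leaves the other of its group to be taken as equally variable. The medians then ranged from -1.03 to -1.0 for the de novo, from -0.92 to -0.78 for the salvage and from -1.35 to -1.31 for the dNTP genes, the salvage median being -0.78 without polymer X replicate 2. Changes close to a log2 fold change of 1 crossed it: PPAT (-0.99) and PFAS (-0.98) fell short and IMPDH1 (-1.01) and UMPS (-1.02) passed without TCP replicate 2, PFAS (-0.97) fell short and ADA (-1.01) passed without polymer X replicate 1, and HPRT1 (-0.97) fell short and IMPDH2 (-1.01) and DCK (-1.01) passed without polymer X replicate 2. The number of genes that fell by 1 or more ranged from 17 to 18, and the number that rose from 0 to 0. With the replicate number as a replicate block it was 17, the same 17 genes, and no call changed. Libraries that share a number deviated together with r = 0.0927 over the tested genes, which was taken as no pairing. The lowest depth behind a gene of the list was 257 tags, for DHODH.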
